A study of Homo sapiens with 14 samples.

Results

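Serine 2 phosphorylated RNA polymerase II (Ser2) was compared with total RNA polymerase II (RNAPII) gene by gene, in chromatin immunoprecipitation and sequencing (ChIP-seq) libraries of BJ hTERT cells that had received no inhibitor of ATR, the replication stress kinase. BJ hTERT is an established human foreskin fibroblast line that telomerase keeps dividing. The members are the 8 of 14 libraries without the inhibitor: Ser2 at 14 h with no treatment named, Ser2 at 16, 19 and 22 h in DMSO, the vehicle, and total RNAPII at the same 4 hours and under the same conditions. Each Ser2 library was paired with the total library of its hour, which gave 4 pairs, and the other 6 libraries, with ATR inhibitor (ATRi) at 16, 19 and 22 h, gave 3 pairs. Ser2 was captured with an antibody labelled as against Ser2-RPB1, and total RNAPII with one against the amino terminal domain of RPB1. There was 1 library per group, so hours stand in for replicates, and p-values measure only the spread between these libraries, which may be technical. The event from which hours were counted, the inhibitor and the number of cultures were not given in the sources used here, and the protocol names antibodies to histones only.

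RPB1, the largest subunit of RNAPII, carries a tail of heptad repeats whose serines are phosphorylated in turn as the polymerase moves along a gene. Serine 5 is phosphorylated near the start, while CDK9 and CDK12 phosphorylate serine 2 on polymerases that have left the promoter, and the Ser2 form builds up towards the 3-prime end, where it recruits cleavage and polyadenylation factors. An antibody to the amino terminus of RPB1 binds the paused and the elongating enzyme alike. The ratio of Ser2 to total over a gene thus sets the phosphorylated form against all polymerase counted there, over the whole gene span and not by position within it.

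The authors' table listed 12425 genes, of which 14 were mitochondrial. A gene was kept if it was nuclear and averaged at least 1 read per 1000000 library reads (RPM) over the 8 libraries, which left 11985 of 12411 nuclear genes and dropped 426; the genes nearest to this minimum averaged 1.00 RPM inside it and 0.999 RPM outside it. Of the genes kept, 10498 could be given a symbol. Library totals were 18152431 to 38269525 reads for Ser2 and 17181179 to 35871568 reads for total RNAPII, with 303 to 875 and 346 to 1276 reads in the median gene. Of 12 fibroblast markers 11 were listed, all above the median read density, and they summed to 31.4 to 78.2 RPM per kb in Ser2 and 40.6 to 90.0 RPM per kb in total RNAPII; TWIST1 was not listed. Of the markers of other cell types, 3 of 9 epithelial ones (KRT14, KRT18 and KRT8, at 1.29 to 2.00 RPM per kb summed in Ser2), 2 of 5 endothelial, 0 of 6 blood and 1 of 5 melanocyte markers were listed. In a bulk culture, fewer cells with polymerase on a gene and less polymerase per cell cannot be told apart.

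Promoters of genes that stood apart from the median gene on the same side at all 4 hours are shown here, so that the 2 groups can be read side by side. They are the 3 Ser2-poor and the 3 Ser2-rich genes ranked first, by the rule given further on, whose promoter was in the RefSeq table and lay outside the listed gene span. Each is 100 bases upstream of the RefSeq start (GRCh38.p14), written 5-prime to 3-prime on the strand of the gene, and capitals mark CG dinucleotides.
The Ser2-poor genes were:
TBCC, chr6:42746104-42746203, minus strand: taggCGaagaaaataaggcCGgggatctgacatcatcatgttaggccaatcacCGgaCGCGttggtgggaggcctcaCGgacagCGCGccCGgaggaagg
CHST14, chr15:40470884-40470983, plus strand: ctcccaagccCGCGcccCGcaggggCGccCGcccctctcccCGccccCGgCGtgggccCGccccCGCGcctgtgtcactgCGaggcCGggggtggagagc
SAT1, chrX:23783073-23783172, plus strand: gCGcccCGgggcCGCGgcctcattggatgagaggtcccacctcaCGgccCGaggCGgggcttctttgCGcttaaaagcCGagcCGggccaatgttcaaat
The Ser2-rich genes were:
MNS1, chr15:56465138-56465237, minus strand: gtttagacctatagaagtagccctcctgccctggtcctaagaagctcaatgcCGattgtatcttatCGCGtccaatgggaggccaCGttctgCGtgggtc
TMEM178B, chr7:141073964-141074063, plus strand: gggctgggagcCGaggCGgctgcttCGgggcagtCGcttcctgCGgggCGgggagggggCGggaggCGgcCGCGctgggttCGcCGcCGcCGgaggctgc
CMYA5, chr5:79689736-79689835, plus strand: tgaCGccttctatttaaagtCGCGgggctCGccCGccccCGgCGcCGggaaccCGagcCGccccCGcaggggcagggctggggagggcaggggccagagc
The Ser2-poor promoters held 9, 13 and 10 CG dinucleotides with 60%, 84% and 66% of bases G or C, and the Ser2-rich ones held 5, 14 and 11 with 53%, 82% and 76%. The 2 groups overlapped in both measures. The table held promoters for 8586 genes tested (71.6%), under the 80% that a comparison over all genes would need, so none was made.

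Per gene, the log2 ratio of Ser2 to total (each RPM plus 0.5) was taken at each hour and centred on the median gene of that hour, so that a ratio of 0 marks a gene like the median one. Tested with limma over the 4 pairs, 1517 genes had a higher ratio (12.7% of 11985) and 1520 a lower one (12.7%) at a Benjamini-Hochberg adjusted p under 0.05. The genes called higher had a median ratio of 0.36, a factor of 1.29 above the median gene, and those called lower -0.36, a factor of 1.28 below it. As 25.3% of all genes were called, a share of about this size in any group of genes says nothing particular about it. Leaving out 19 h left 9 genes higher and 79 lower in limma, and leaving out 16 h left 819 and 891. On the deposited scale, without centring, Ser2 lay below total for the median gene in every pair, the median mean ratio was -0.32, and limma called 98 genes higher and 5905 lower (1.63% of calls higher). Sums of RPM do not tell this offset from a less efficient immunoprecipitation, so all ratios are relative to the median gene unless stated. Without a replicate block, with Ser2 and total as 4 against 4 unpaired libraries, limma called 0 genes, and at an unadjusted p under 0.05 there were 181 higher and 737 lower.

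The ratio followed read density, the mean RPM per kb of gene. Ser2-poor genes were short and densely covered, with a median of 7.29 kb and 1.82 RPM per kb, and Ser2-rich genes were long and thinly covered, with 133 kb and 0.327 RPM per kb. Over the 11985 genes, Pearson's r between the mean ratio and log2 density was -0.73, and by hour it was -0.50 at 14 h, -0.82 at 16 h, -0.51 at 19 h and -0.52 at 22 h. These are descriptions across genes, which are not independent replicates, and the density is computed from the same libraries as the ratio. Of 4 equal classes of density, the lowest had a median ratio of 0.25, with 1436 of 2997 genes called higher and 8 lower, and the highest had -0.22, with 5 of 2996 called higher and 1170 lower.

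**Figure D1:**
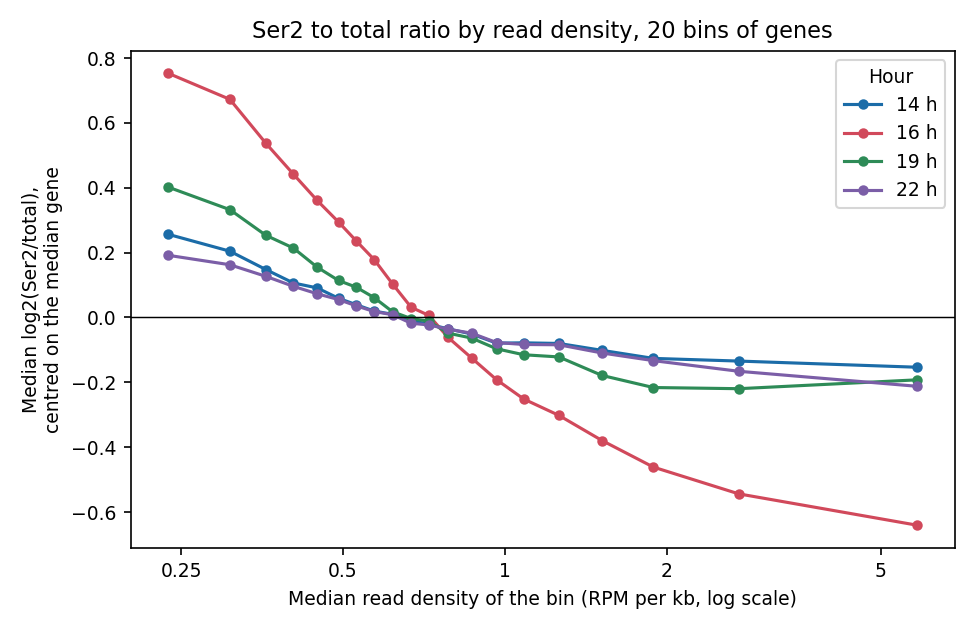
Median centred log2 ratio of Ser2 to total (vertical axis) in 20 bins of genes against the median read density of the bin (RPM per kb, log axis), with 1 line per hour. All 4 lines fall with density, and the 16 h line is the steepest, between 0.75 in the lowest bin and -0.64 in the highest, against 0.19 and -0.21 at 22 h.

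The spread over genes was wider at the hours where the antibodies differed more in their share of reads inside genes. The SD of the ratio over genes was 0.20, 0.42, 0.31 and 0.19 at 14, 16, 19 and 22 h. The share of reads in listed nuclear genes was 37.7%, 35.8%, 63.5% and 40.0% in Ser2, against 43.4%, 49.4%, 72.0% and 42.8% in total RNAPII. Total thus exceeded Ser2 by 5.67, 13.6, 8.48 and 2.81 percentage points, and the hours with the wider gaps, 16 and 19 h, also had the wider spreads. The part of this gap in the ratios was not tested. Alternative settings changed the calls. With a background density (the 5th percentile of RPM per kb of each library) subtracted, limma called 0 genes, and at an unadjusted p under 0.05 there were 1264 higher and 1398 lower. With the smooth trend on log2 density removed at each hour, limma called 111 genes higher (0.926%) and 439 lower (3.66%), 4.59% in all, so that 20.2% of calls were higher, against 50.0% before; 54 of the 111 and 281 of the 439 were also called without this step.

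**Figure D2:**
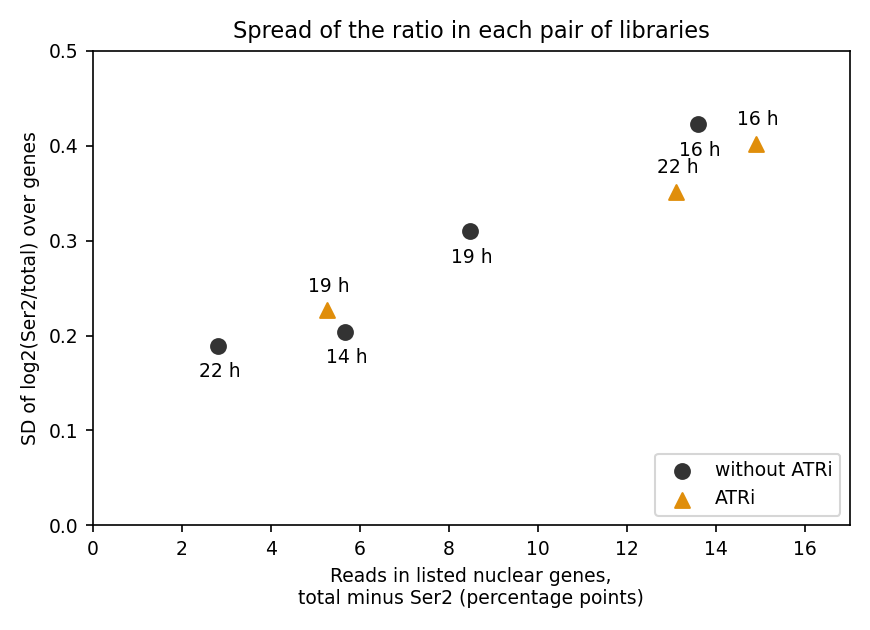
SD over genes of the centred log2 ratio of Ser2 to total in each pair (vertical axis) against the gap between total and Ser2 in the share of reads inside listed nuclear genes (horizontal axis, percentage points), 1 point per pair. The SD is 0.19 where the gap is 2.81 points (22 h) and 0.42 where it is 13.6 points (16 h), and the 3 ATRi pairs have SDs between these values.

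Longer genes had higher ratios at every hour. The median ratio was -0.25 for 1304 genes under 5 kb, -0.17 for 3103 genes of 5 to 20 kb, 0.02 for 5267 of 20 to 100 kb, 0.18 for 1893 of 100 to 300 kb and 0.35 for 418 over 300 kb. Of the genes over 300 kb, 260 were called higher in limma (62.2%) and 0 lower, and of those under 5 kb, 16 were called higher and 527 lower (40.4%). Length and density went together (r = -0.64 between their logarithms over genes). Among the genes of the lowest density class, the median was still 0.14 at 5 to 20 kb, 0.20 at 20 to 100 kb, 0.29 at 100 to 300 kb and 0.41 over 300 kb, while the 44 genes there under 5 kb had 0.23 and broke the order. With the density trend removed, the 5 class medians were -0.03, -0.06, 0.00, 0.05 and 0.10.

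**Figure D3:**
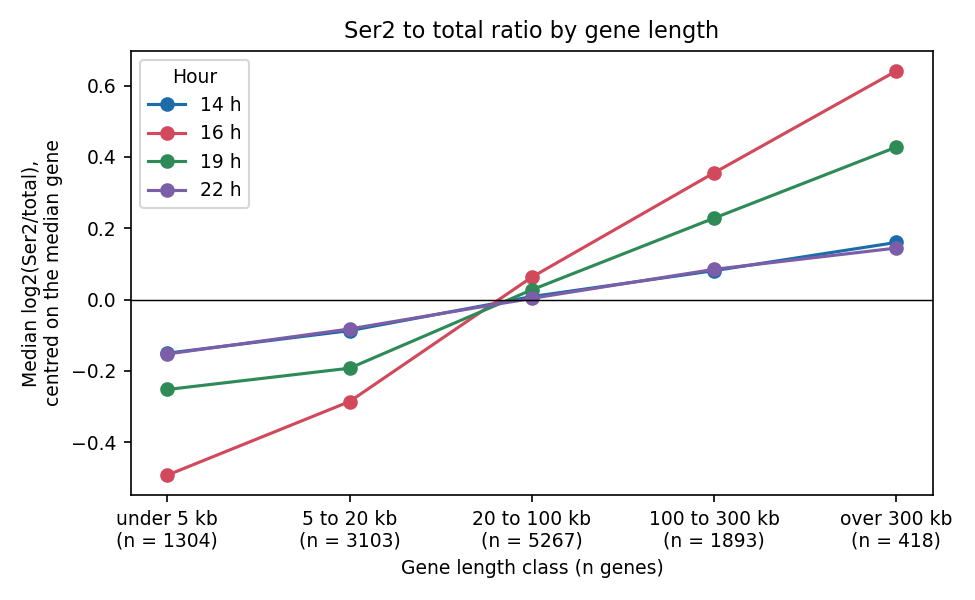
Median centred log2 ratio of Ser2 to total (vertical axis) by gene length class (horizontal axis, number of genes under each class), with 1 line per hour. The medians order by length at all 4 hours, and the class over 300 kb lies at 0.16, 0.64, 0.43 and 0.14 at 14, 16, 19 and 22 h.

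Single genes were ranked by their ratio at the hour where they lay nearest to the median gene, among called genes of at least 3 RPM that share under 10% of their span with others; 12 were taken on each side. The Ser2-poor genes were SLC10A3, SLC61A1, TBCC, CHST14, TCEAL9, TIMM8A, RRAGA, POLR2C, SAT1, SUPT4H1, LINC01311 and RPP25. Their products have unlike roles, and 11 of the 12 kept their call with the density trend removed (RRAGA did not, limma adjusted p = 0.0716). SUPT4H1 (ENSG00000213246, chromosome 17, 58345175 to 58353093, hg38, minus strand) encodes SPT4, a subunit of the elongation factor DSIF that holds and then accompanies RNAPII. It had 6.34, 6.27, 13.2 and 6.94 RPM in Ser2 at 14, 16, 19 and 22 h, against 12.4, 17.7, 26.0 and 11.3 RPM in total RNAPII. Ser2 was lower at each hour, while the 19 h Ser2 value exceeded the 14 h and 22 h totals, so the groups overlapped. The centred ratios were -0.68, -0.82, -0.68 and -0.54, with a mean of -0.68 ± 0.09 (4 pairs, moderated SE; limma adjusted p = 0.00143), or 0.624 times the median gene, and -0.48 with the density trend removed.

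POLR2C (ENSG00000102978, chromosome 16, 57462387 to 57472010, plus strand) encodes RPB3, a subunit of RNAPII itself. Its Ser2 values were 5.78, 5.93, 12.7 and 6.03 RPM over the 4 hours, against 10.7, 15.0, 22.8 and 10.3 RPM in total RNAPII. Again the 19 h libraries were the highest of each antibody, and Ser2 at 19 h overlapped total at the other hours. POLR2C was among the steadiest of the 24 genes, its ratios being -0.60, -0.67, -0.55 and -0.60 with a mean of -0.60 ± 0.09 (4 pairs, moderated SE; limma adjusted p = 0.00166). TBCC (ENSG00000124659, chromosome 6, 42744481 to 42746096, minus strand), a tubulin folding cofactor, had 2.15, 2.17, 6.16 and 2.33 RPM in Ser2 and 4.48, 6.31, 11.8 and 4.52 RPM in total RNAPII. Its ratios were -0.67, -0.75, -0.61 and -0.70, close together around the mean of -0.68 ± 0.11 (4 pairs, moderated SE; limma adjusted p = 0.00190).

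SLC10A3, a member of the bile acid transporter family, had the lowest mean among these 12, with 1.82, 1.46, 3.61 and 1.72 RPM in Ser2 and 3.96, 5.02, 9.31 and 3.41 RPM in total RNAPII. Total exceeded Ser2 at every hour, although the 19 h Ser2 value lay above the 22 h total, and the ratios of -0.70, -0.89, -0.98 and -0.69 averaged -0.82 ± 0.12 (4 pairs, moderated SE; limma adjusted p = 0.00166). SAT1, the polyamine catabolic enzyme, had 2.92, 2.40, 12.2 and 4.38 RPM in Ser2 and 6.17, 7.29, 21.9 and 7.93 RPM in total RNAPII. Its mean was -0.69 (adjusted p = 0.00166), and its 19 h Ser2 value was above 3 of the 4 totals. The remaining members were SLC61A1, a molybdate transporter, at -0.80, RPP25, a subunit of RNase P, at -0.74, CHST14, a dermatan sulfotransferase, at -0.71, TCEAL9 at -0.68, RRAGA, a GTPase that carries amino acid signals to mTORC1, at -0.64, TIMM8A, a chaperone of mitochondrial import, at -0.64, and the long non-coding LINC01311 at -0.70. All of these had a limma adjusted p of 0.00247 or less. In limma, 12 of the 12 kept their call without 14, 16 or 22 h and 11 without 19 h, and 0 with the background density subtracted, where all 12 kept their sign. The genes were chosen for lying on the same side at all 4 hours. Their signs with an hour left out are fixed by this choice, and the calls are not independent of it.

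The Ser2-rich genes were TSIX, BPNT1, HERC5, GPR137B, SLC1A1, MNS1, TMEM178B, CMYA5, FBLN2, REPS2, WWC1 and SALL4. TSIX lies antisense to another gene and ChIP reads carry no strand, so its values are not given. GPR137B (ENSG00000077585, chromosome 1, 236142505 to 236221865, plus strand), a lysosomal membrane protein, had 23.6, 23.2, 23.0 and 25.8 RPM in Ser2, against 20.6, 22.3, 20.5 and 20.3 RPM in total RNAPII. Every Ser2 library was above every total library, one of 8 genes of which this held (0.0668% of those tested), against 85 genes with every Ser2 library below (0.709%), together 0.776%. Its ratios were 0.43, 0.66, 0.44 and 0.47, with a mean of 0.50 ± 0.08 (4 pairs, moderated SE; limma adjusted p = 0.00195), or 1.41 times the median gene. Removing the density trend gave 0.14 and ended the call (adjusted p = 0.201).

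HERC5 (ENSG00000138646, chromosome 4, 88457117 to 88506163, plus strand), the interferon induced ligase for ISG15, had 16.6, 16.0, 7.49 and 17.9 RPM in Ser2 and 13.6, 12.3, 4.24 and 14.3 RPM in total RNAPII. Both antibodies were lowest at 19 h, and Ser2 exceeded total within each hour while the groups overlapped. Its coverage was thin, at 0.261 RPM per kb, and the 19 h libraries had the largest share of reads inside genes. The part of these in its 19 h values was not tested. The ratios of 0.52, 0.97, 1.03 and 0.44 averaged 0.74 ± 0.11 (4 pairs, moderated SE; limma adjusted p = 0.00166), and the call held with the density trend removed, at 0.36 (adjusted p = 0.0295). TMEM178B, a membrane protein gene of 406 kb, had 97.0, 99.6, 33.0 and 92.7 RPM in Ser2 and 77.5, 69.1, 16.1 and 78.5 RPM in total RNAPII. Its ratio was over 1 at 16 and 19 h but 0.56 at 14 h and 0.36 at 22 h, with a mean of 0.83 ± 0.12 (4 pairs, moderated SE; adjusted p = 0.00166).

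BPNT1, a phosphatase of sulfate metabolism, was the steadiest of the Ser2-rich genes shown, with 11.7, 11.3, 8.74 and 9.96 RPM in Ser2 and 10.0, 11.1, 7.08 and 7.72 RPM in total RNAPII. The ratios were 0.46, 0.64, 0.56 and 0.47 and the mean 0.53 ± 0.09 (4 pairs, moderated SE; limma adjusted p = 0.00250), but with the density trend removed it was 0.18 and not called. SALL4, a transcription factor of stem cells, had 5.56, 5.36, 3.31 and 6.52 RPM in Ser2 and 3.26, 4.34, 3.12 and 5.11 RPM in total RNAPII. It was the one gene of the set with its lowest ratio, 0.35, at 19 h, and its mean was 0.65 (adjusted p = 0.00373). The others were REPS2, an endocytic adaptor, at 0.85, WWC1 (KIBRA), a scaffold of the Hippo pathway, at 0.70, CMYA5, a muscle protein, at 0.68, FBLN2, the matrix protein fibulin 2, at 0.63, SLC1A1, a glutamate transporter, at 0.61, and MNS1, a protein of sperm and cilia, at 0.50. Their read densities ran between 0.104 RPM per kb in REPS2 and 0.347 in MNS1, all in the lowest density class. The 600 genes tested with the lowest density had a median of 0.237 RPM per kb. REPS2, TMEM178B, FBLN2, WWC1, SALL4 and CMYA5 lay below that median, and HERC5, GPR137B, SLC1A1, BPNT1 and MNS1 lay above it. Whether the coverage of the Ser2-rich genes stood above the background density was not tested. In limma, 12 of the 12 kept their call without 14, 16 or 22 h, 5 without 19 h, 7 with the density trend removed and 0 with the background density subtracted, and all 12 kept their sign in each. The signs with an hour left out are fixed by the choice of genes, and the calls are not independent of it. Background subtraction set values under 0 to 0. A gene at 0 in both antibodies takes its sign from the centring alone, so the signs kept there are no support for such thinly covered genes.

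**Figure D4:**
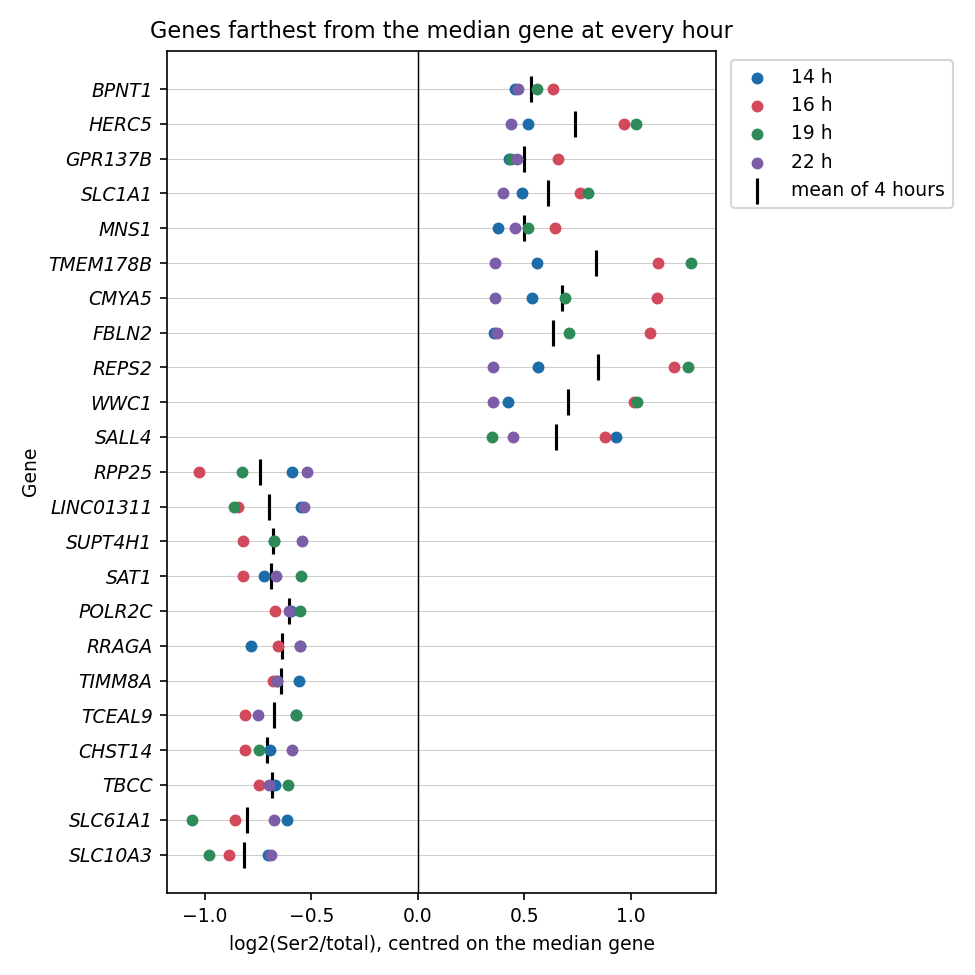
Centred log2 ratios of Ser2 to total (horizontal axis) of the 23 genes with values, Ser2-rich genes above and Ser2-poor genes below, with 1 point per hour and a bar at the mean. All hours lie on 1 side of 0 for each gene by the choice of genes, and the Ser2-poor points lie closer together than those of long Ser2-rich genes such as TMEM178B (0.36 at 22 h and 1.28 at 19 h).

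In the gene lists, named members that were called kept the call with the density trend removed in SUPT4H1, H3-3A, HMMR, OTULIN-DT and TNFAIP2, and all others named below lost it. Of all genes tested, 12.7% were called higher and 12.7% lower, which is the background for each list count below. Genes of the transcription machinery lay near the median gene as a list. Of 29 kinases of serine 2 and RNAPII elongation factors, 0 were called higher and 4 lower in limma (13.8%, near the 12.7% of all genes), with a median of -0.04 against -0.01 for all genes, and 0.03 with the density trend removed. Among the 4 was SUPT4H1, described above, the only member of the list still called with the trend removed. MEPCE, which caps 7SK RNA and keeps CDK9 in its inactive complex, had 19.6, 13.8, 47.9 and 22.9 RPM in Ser2 and 27.6, 37.6, 74.7 and 32.7 RPM in total RNAPII, a mean ratio of -0.45 ± 0.09 (4 pairs, moderated SE; adjusted p = 0.00439), which was -0.13 and not called with the density trend removed (adjusted p = 0.126). HEXIM1, the inhibitor in that complex, lay at -0.37, -0.69, 0.03 and -0.16, on average -0.30 (adjusted p = 0.0467), which was 0.02 with the density trend removed. CDK9 itself had ratios of -0.49, -0.66, -0.28 and 0.17, positive at 22 h, and did not pass (mean -0.32, adjusted p = 0.0689), nor did CDK12 (mean 0.06, adjusted p = 0.595) or SUPT5H, the partner of SPT4 (mean -0.17, adjusted p = 0.115). POLR2A, which encodes RPB1, was called lower at -0.24 (adjusted p = 0.0441), but with the density trend removed it was -0.03 and not called (adjusted p = 0.778).

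Of 23 factors of 3-prime end processing and termination, 0 were called higher and 2 lower (8.70%), with a median of -0.04, or 0.01 with the density trend removed. The 2 were PPP1R10 (PNUTS), a phosphatase subunit that slows RNAPII at gene ends, at -0.36 (limma adjusted p = 0.0340), and ZC3H4, a restrictor of non-coding transcription, at -0.24 (adjusted p = 0.0313). PPP1R10 ranged over -0.41, -0.80, -0.33 and 0.10 and was not below the median gene at 22 h, while ZC3H4, at -0.14, -0.37, -0.26 and -0.17, was below at each hour. Of 30 SR proteins and hnRNPs, the splicing regulators, 0 were called higher and 5 lower (16.7%). Their median was -0.18, or 0.07 with the density trend removed. SRSF2, with 46.3% of its span shared with another listed gene, was at -0.32 (adjusted p = 0.0206).

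Histone genes fall into kinds that end their transcripts differently. Replication-dependent histone genes are transcribed in S phase and end in a stem loop without a poly(A) tail, while the variant genes are polyadenylated. Of 8 polyadenylated variants, 6 were called lower in limma and 0 higher, with a median of -0.42. H3-3A, a gene of histone H3.3, had 12.5, 10.97, 31.6 and 12.8 RPM in Ser2 and 20.6, 29.3, 47.7 and 19.1 RPM in total RNAPII, a mean ratio of -0.50 ± 0.09 (4 pairs, moderated SE; adjusted p = 0.00282). Ser2 was lower at each hour, most so at 16 h, and the 19 h Ser2 value overlapped the totals. H2AZ1 was at -0.44 (adjusted p = 0.00817). Of 23 replication-dependent genes, 7 were called lower and 0 higher, with a median of -0.23; by hour the medians were -0.18, -0.62, 0.03 and -0.20, so that at 19 h the list lay at the median gene. H3C3 had 10.4, 9.30, 26.2 and 15.9 RPM in Ser2 and 16.2, 23.9, 29.2 and 22.8 RPM in total RNAPII, with ratios of -0.37, -0.71, 0.12 and -0.38 (mean -0.34, adjusted p = 0.0357). After the density trend was removed the medians were -0.11 for the variants and 0.03 for the replication-dependent genes, with 1 of 8 and 0 of 23 called lower. The difference between the lists was not tested, and the paralogues within a list share sequence.

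Small nuclear RNA genes are short, are transcribed by RNAPII and use another 3-prime end machinery. In the list, 1 of 7 was called lower (14.3%, near the 12.7% of all genes) and 0 higher. The list medians by hour were -0.16, -0.36, 0.36 and -0.46, on the other side of the median gene at 19 h. Of the 10 genes tested that are annotated as small nuclear RNA, 3 were called lower (30%) and 0 higher, with a median of -0.16. RNU4-1, a U4 gene, had 8.98, 6.19, 13.5 and 10.2 RPM in Ser2 and 14.1, 15.5, 15.7 and 14.6 RPM in total RNAPII. Every Ser2 library was below every total library, which held for 85 genes tested (0.709%). That is on the uncentred scale, where Ser2 lay below total for the median gene too. Its centred ratios were -0.39, -0.65, 0.06 and -0.38, not below the median gene at 19 h. Their mean was -0.34 ± 0.11 (4 pairs, moderated SE, limma adjusted p = 0.0323). RNU5B-1, a U5 gene, had ratios of -0.22, -0.36, 0.42 and -0.46 and did not pass (adjusted p = 0.351). Near-identical copies of these genes share reads, so their counts are uncertain.

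The cytosolic ribosomal protein genes, short and densely covered (median 3.86 RPM per kb), had 33 of 65 called lower in limma and 0 higher, with a median of -0.27. Every one of the 65 lay below the median gene in its mean. RPS15 had 6.28, 4.81, 15.2 and 6.36 RPM in Ser2 and 9.72, 14.0, 23.4 and 10.0 RPM in total RNAPII, a mean of -0.51 ± 0.10 (4 pairs, moderated SE; adjusted p = 0.00445). Once the density trend was removed the list median was 0.02 and 0 members were called. Mitochondrial ribosomal protein genes had 19 of 59 called lower and 1 higher, with a median of -0.11, or -0.06 with the trend removed; MRPL57 was at -0.53 (adjusted p = 0.00341). Hosts of small nucleolar RNAs and abundant long non-coding RNAs had 9 of 16 called lower and 1 higher, with a median of -0.29, or 0.00 with the trend removed. The transcripts named for running divergently from a neighbour are a list chosen after values were seen. Of these 56, 18 were called lower (32.1%) and 6 higher (10.7%), against 12.7% of all genes on each side. The list was short and densely covered (medians 6.24 kb and 1.23 RPM per kb). Its median was -0.16, and with the trend removed -0.06, with 3 called lower and 0 higher. OTULIN-DT was at -0.67 (adjusted p = 0.00204) and CTCF-DT at -0.63 (adjusted p = 0.00482).

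Immediate early genes, which signals induce within minutes, had 15 of 26 called lower and 0 higher in limma, with a median of -0.29, or 0.02 with the density trend removed. EGR1, a transcription factor of this class, had 19.6, 4.10, 42.3 and 7.20 RPM in Ser2 and 27.2, 10.95, 60.0 and 11.5 RPM in total RNAPII. Its level changed several fold over the hours in both antibodies, highest at 19 h and lowest at 16 h, while its ratio stayed below the median gene, at -0.23, -0.71, -0.22 and -0.51 (mean -0.42 ± 0.09, 4 pairs, moderated SE; adjusted p = 0.00713). DUSP6, an ERK phosphatase, was at -0.47 (adjusted p = 0.00562), and IER2, with 25.0% of its span in another listed gene, at -0.50 (adjusted p = 0.00210).

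The unfolded protein and ATF4 response list had 9 of 13 called lower and 0 higher, with a median of -0.31. It was one of the lists whose median stayed below 0 with the density trend removed, at -0.13, though 0 of its members were then called. SDF2L1, an endoplasmic reticulum chaperone cofactor, had 2.09, 1.36, 3.64 and 2.43 RPM in Ser2 and 3.55, 3.74, 7.53 and 4.15 RPM in total RNAPII, a mean of -0.55 ± 0.12 (4 pairs, moderated SE; limma adjusted p = 0.00500), and XBP1, a transcription factor of the response, was at -0.42 (adjusted p = 0.00527). Heat shock and chaperone genes had 4 of 12 called lower and 0 higher (median -0.13, or -0.02 with the trend removed), with HSPB1 (HSP27) at -0.37 (adjusted p = 0.0139). Of p53 targets, 6 of 19 were called lower and 0 higher (median -0.08, or -0.07 with the trend removed), among them CDKN1A (p21) at -0.34 (adjusted p = 0.0112) and BBC3 (PUMA) at -0.48 (adjusted p = 0.00363). With the trend removed 0 of the 19 were called, CDKN1A at -0.07 (adjusted p = 0.520) and BBC3 at -0.20 (adjusted p = 0.0513).

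Fibroblast matrix and contractile genes had 4 of 29 called lower and 0 higher, near the background of 12.7%, with a median of -0.08. Their medians by hour were 0.00, -0.51, -0.01 and 0.01, so that the 16 h pair alone moved the list median away from 0. COL1A1, a chain of type I collagen, had 159.5, 109, 226 and 137 RPM in Ser2 and 189, 238, 280.2 and 127 RPM in total RNAPII. It was not called (mean -0.08, limma adjusted p = 0.626), but with the density trend removed it was 0.25 and called higher (adjusted p = 0.0381), one of 3 of the 29, and the list median was then 0.16. TIMP1, an inhibitor of matrix proteases, was called lower at -0.41 (adjusted p = 0.0248), as was TPM2, a tropomyosin, at -0.38 (adjusted p = 0.00640).

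G1/S and replication genes had 6 of 39 called lower (15.4%, near the 12.7% of all genes) and 0 higher (median -0.11, or 0.03 with the density trend removed). G2/M and mitotic genes had 3 of 41 called lower (7.32%) and 1 higher (median -0.03, or 0.07 with the trend removed). HMMR, a hyaluronan receptor of the mitotic spindle, was among the steadiest genes named, at -0.27, -0.34, -0.27 and -0.24, averaging -0.28 ± 0.07 (4 pairs, moderated SE; limma adjusted p = 0.0137). Glycolysis genes had 2 of 15 called lower (13.3%, again near the background) and 0 higher (median -0.14, or 0.04 with the trend removed). Among them TPI1 was called at -0.46 (adjusted p = 0.00327) and GAPDH was not (mean -0.22, adjusted p = 0.0958). Zinc finger genes of chromosome 19 had 8 of 158 called lower and 10 higher (median 0.02, or -0.04 with the trend removed), both shares under the background. Cholesterol synthesis genes had 0 of 17 called lower and 1 higher (median -0.07, which was 0.03 under quantile normalization and -0.13 with the trend removed). The NF-kB and interferon list had 3 of 14 called lower and 1 higher, BIRC3, an inhibitor of apoptosis, at 0.50 (adjusted p = 0.0107), with a median of -0.03, or 0.08 with the trend removed. TNFAIP2 was called lower, at -0.39 (limma adjusted p = 0.00539). With the trend removed it was the 1 member called, at -0.26 (limma adjusted p = 0.0381), and BIRC3 was not called (limma adjusted p = 0.0666).

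**Figure D5:**
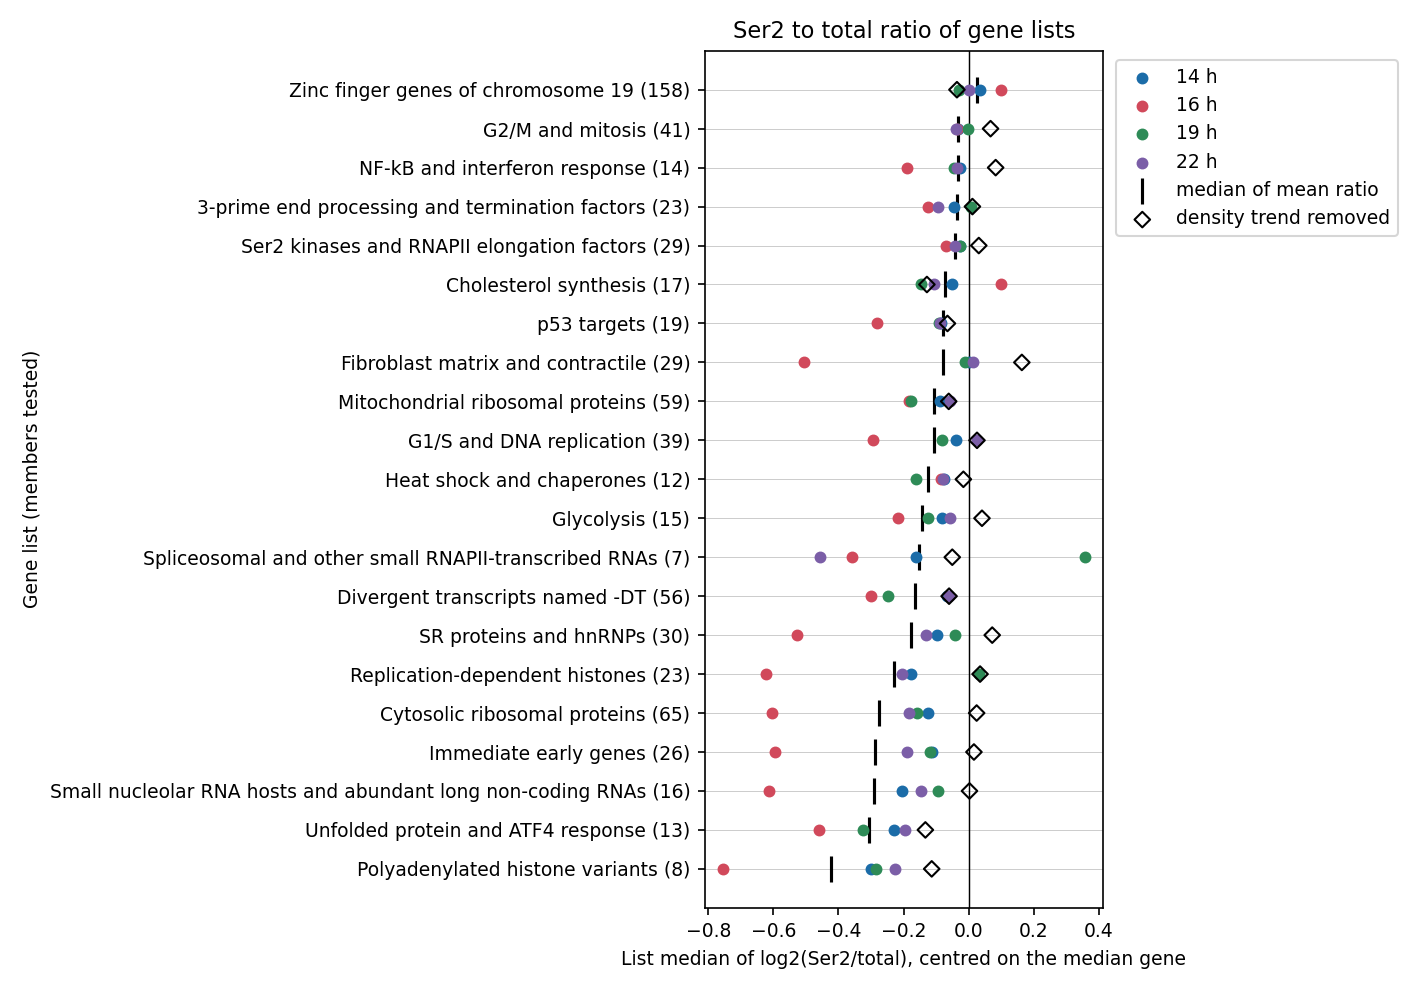
Median centred log2 ratio of Ser2 to total (horizontal axis) of 21 gene lists, with members tested in brackets: 1 point per hour, a bar for the median of the mean ratio, and an open diamond for that median with the density trend removed. The 16 h point is the lowest in most lists, and the diamonds lie between -0.13 and 0.16.

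With the density trend removed, the genes farthest from 0 were named in a step added after values were seen. On the lower side were SLC10A3, SUPT4H1 and SLC61A1 again, and VPS52, a subunit of a tethering complex for vesicles, with 2.09, 2.27, 5.73 and 2.24 RPM in Ser2 and 3.73, 3.96, 9.70 and 3.35 RPM in total RNAPII. VPS52 had a mean of -0.77 with the trend removed (limma adjusted p = 0.00675), against -0.34 without this step, and it was covered thinly, at 0.190 RPM per kb. CLIC1, a chloride channel protein, had -0.66 (adjusted p = 0.0152), against -0.48 without the step. VPS52 and CLIC1 lie in the region of the major histocompatibility complex on chromosome 6. There 15 of 56 genes (26.8%) were called lower with the trend removed, at a median coverage of 0.254 RPM per kb. Their values are thus not particular to these 2 genes. On the higher side, TMEM167B, a small membrane protein, had 8.15, 6.87, 16.4 and 8.24 RPM in Ser2 and 6.40, 8.76, 17.1 and 8.41 RPM in total RNAPII and 0.46 with the trend removed (adjusted p = 0.0192). FAM171B was at 0.40 (adjusted p = 0.0106), NBPF1 at 0.34 (adjusted p = 0.0229), a member of a family of near-identical copies that may share reads, and SURF6, a nucleolar protein, at 0.30 (adjusted p = 0.0309).

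The side on which a gene lay was kept over the 4 hours by 47.4% of genes, of which 2921 (24.4%) lay above the median gene and 2765 (23.1%) below, and the other 6299 (52.6%) changed sides. Genes that kept their side had a median absolute mean ratio of 0.26, and those that changed 0.08. The SD of a gene's ratio over the hours had a median of 0.17, against 0.09 from read counting alone, and exceeded its own counting SD in 80.3% of genes. The share differed with depth: of 4111 genes with over 1000 reads in the average library, 50.0% kept their side, and of 573 genes under 100 reads 33.0% did. Over genes, the ratios of any pair of hours had a Pearson's r of 0.51 (14 and 22 h) to 0.76 (16 and 19 h), and of 0.26 to 0.62 with the density trend removed, a description over 11985 genes that share depth and density. The ratio farthest from the median gene was the one at 16 h in 59.8% of genes, at 19 h in 21.2%, at 14 h in 9.64% and at 22 h in 9.37%.

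A straight trend of the ratio over the hours was called for 0 genes in limma, in either direction, with 49 rising and 26 falling at an unadjusted p under 0.05. The lowest of the adjusted p-values was 0.9997. Together these 75 of 11985 genes are a smaller share than a threshold of 0.05 would pass by chance. With each hour scaled to the same spread, 858 genes were under that threshold and 0 were called. The count thus changed with the unequal spread of the hours, and the 0 calls do not show that ratios were steady. MMP1, the interstitial collagenase, had 20.4, 9.43, 71.1 and 15.2 RPM in Ser2 and 23.6, 16.8, 88.8 and 32.3 RPM in total RNAPII, and ratios of 0.03, -0.19, -0.05 and -0.94, which set 22 h apart from the other hours (slope -0.10 per hour, unadjusted p = 0.00273, limma). LUM, the matrix proteoglycan lumican, had ratios of 0.13, -0.60, 0.19 and 0.59, lowest at 16 h and highest at 22 h, and AVPI1 had -0.51, -0.57, -0.18 and 0.38. The genes with the widest spread over hours were long: PPP1R9A, ANK2, COL24A1, PDE4D, SEMA3D and TMTC1. ANK2, the scaffold protein ankyrin B, of 566 kb, had 177, 180.1, 91.8 and 178 RPM in Ser2 and 164, 132, 36.4 and 166 RPM in total RNAPII. Both were lowest at 19 h, total more so, and the ratios were 0.35, 1.05, 1.59 and 0.23. PDE4D, a cAMP phosphodiesterase, and PPP1R9A, the actin binding protein neurabin, took the same course, with 0.42, 1.15, 1.52 and 0.24 and 0.42, 1.14, 1.61 and 0.23, so that their side was steady and its size was not. ANK2, PDE4D and PPP1R9A were thinly covered, at 0.249, 0.221 and 0.227 RPM per kb. The 19 h libraries had the largest share of reads inside genes, 63.5% in Ser2 and 72.0% in total RNAPII. The part of thin coverage and of this share in the 19 h values was not tested.

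The 3 ATRi pairs gave the same measure in other libraries. In limma, 2109 genes were called higher (17.6%) and 1795 lower (15.0%) in them. Of the 1517 genes higher without ATRi, 1394 were higher there too, which is 91.9% of the first list and 66.1% of the second; of the 1520 lower, 1212 were lower there too, 79.7% and 67.5%. Of both lists, 0 genes were called the other way. The ratio also fell with log2 density in the ATRi pairs (r = -0.78, -0.39 and -0.75 over genes at 16, 19 and 22 h). The part of this shared trend in the agreement was not tested. With the density trend removed without ATRi, 111 genes were called higher and 439 lower. In the ATRi calls, made with the trend in place, 48 and 250 of these were on the same side, and 3 and 7 on the other. All 3 ATRi pairs lay on the same side for 1454 of the 1517 and 1418 of the 1520, where 32.4% and 31.7% of all genes, 64.0% together, lay above or below in all 3. By hour, Pearson's r over genes between the ratios without and with ATRi was 0.91 at 16 h, 0.90 at 19 h and 0.54 at 22 h, where the SD over genes was 0.19 without and 0.35 with ATRi and the gap in reads inside genes 2.81 and 13.1 percentage points. SUPT4H1 had ratios of -0.82, -0.68 and -0.54 without ATRi at 16, 19 and 22 h, against -0.90, -0.57 and -0.80 with it, and GPR137B 0.66, 0.44 and 0.47 without, against 0.56, 0.33 and 0.68 with it. MMP1 differed in side at 22 h, at -0.94 without ATRi and 0.74 with it, as did LUM, at 0.59 without and -0.87 with it; with 1 library each, these 2 differences were not tested.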

How the data were processed

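RNAPII ChIP-seq was measured in 14 libraries of BJ hTERT fibroblasts. The authors deposited 1 table of RPM values, reads over the whole gene span per 1000000 library reads, with no correction for gene length. The submitters' processing notes name Bowtie2 2.3.3.1, SAMtools 1.4 and the build hg38; how reads were counted, the annotation, filters on duplicates and any input or spike-in are not given in the sources used here. Within each of the 8 columns, deposited RPM values were whole multiples of what 1 read is worth (to 0.01 reads, for 100% of values), which gave read counts and library totals; 3 reads were worth 0.0784 to 0.175 RPM in the 8 libraries, a floor for counting error only. Columns of other samples numbered 0. Symbols came from the RefSeq gene at the same position in GRCh38.p14 (Jaccard index of at least 0.8, or 0.5 with an end within 100 bp): 10739 of 12425 genes (86.4%), and 20 of 20 identifiers checked were right. Reads over overlapping genes cannot be assigned to 1 of them, and 2457 genes shared over 10% of their span.

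Ratios were log2((Ser2 RPM + 0.5)/(total RPM + 0.5)), a scale that understates the change of low genes, centred per hour. They were tested with limma 3.58.1 (eBayes with trend, two-sided, R 4.3.3), with Benjamini-Hochberg adjustment over all genes tested. The steps were also run on simulated data, with equal noise at every hour, no density trend and no offset between antibodies. That run therefore does not bear on how these features affect the calls. The SE is limma's moderated one. Libraries of 1 hour deviated together from the mean of their antibody (r = 0.70, 0.35, 0.93 and 0.71 over genes at 14, 16, 19 and 22 h), so hours were kept as pairs, which the labels give; at 16 h Ser2 correlated more with the total of another hour (0.71). Alternatives were other pseudocounts, filters, centring and normalization, removal of the density trend (loess), background subtraction, each hour left out, and edgeR 4.0.16 and DESeq2 1.42.0 on the recovered read counts. Named genes were, on each side, the 12 with the largest smallest ratio over the hours, up to 4 members per list with the largest mean ratio, 6 with the widest spread, 6 per side with the smallest p for a trend, and 8 fixed genes, of which ACTB received no symbol. From these the text gives values for part of them. Members and lists were chosen with earlier results of these data known.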

Additional observations from a re-analysis of the deposited data

Results flagged for a closer look

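Over the 4 hourly values of 70 genes and 21 lists, 13 had 1 hour farther from the rest than Dixon's 95% critical value for 4 values allows, and 10 of the 13 were at 16 h. Chance flags about 1 in 20 unselected groups, a rate that does not apply here: part of the genes were chosen from these hourly values, and genes and lists share the same 4 pairs. The hours are different conditions with 1 pair each, and the cause was not tested. Single genes with 16 h apart were GPR137B, with a ratio of 0.66, H2AZ1 with -0.89, HSPB1 with -0.74 and GAPDH with -0.64. TIMM8A stood apart at 14 h with -0.56, nearer to the median gene than at its other hours. Lists with a low median at 16 h were the polyadenylated histone variants at -0.75, cytosolic ribosomal proteins at -0.60, immediate early genes at -0.59, fibroblast matrix and contractile genes at -0.51, p53 targets at -0.28 and the NF-kB and interferon list at -0.19. At 19 h, heat shock and chaperone genes stood apart low at -0.16 and G2/M and mitotic genes high at -0.00082. The 16 h pair also had the widest spread over genes (SD 0.42) and the widest gap in reads inside genes (13.6 percentage points).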

How the results depend on the processing

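Counts of called genes were within 1.5 times of those reported under other pseudocounts (0.1 and 1 RPM), other filters on low values (3 RPM or none), genes under 10% overlap, each hour scaled to the same spread, and edgeR (1881 higher and 1466 lower). Without ATRi, limma called 98 genes higher and 5905 lower without centring, 988 lower under quantile normalization, 111 and 439 with the density trend removed, 0 and 0 with the background density subtracted, 63 and 209 with density and length trends removed, and 302 and 645 among the denser 5993 genes; DESeq2 called 862 lower. In the ATRi pairs the counts were 230 and 7344 without centring, 797 and 1106 with the density trend removed, 50 and 0 with the background subtracted, 536 and 740 with density and length trends removed, and 387 and 599 among the denser 5993 genes. The trend over hours was called for 0 genes in every setting run. Leaving out 1 hour gave 9 to 1630 genes higher and 79 to 1538 lower, with 19 h left out giving the lowest. Without the replicate block, limma called 0 higher and 0 lower, and the pairing by hour was kept in all other fits. Under each of these settings 0 of the called genes changed sign, except without centring (483 of 3037), with the density trend removed (290), with density and length trends removed (483) and with the background subtracted (21). The count tools were not run on the ATRi pairs. The cause was not tested for any of these changes.

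Values on the other side of 0 from those reported, for lists as medians and for genes as mean ratios, were as follows. With the density trend removed: elongation factors 0.031, 3-prime end factors 0.011, replication-dependent histones 0.035, cytosolic ribosomal proteins 0.024, immediate early genes 0.016, G1/S genes 0.025, G2/M genes 0.067, matrix genes 0.16, the NF-kB list 0.083, glycolysis 0.041, SR proteins and hnRNPs 0.072, small nucleolar RNA hosts 0.0022, zinc finger genes -0.036, HEXIM1 0.025, COL1A1 0.25, GAPDH 0.11, SRSF2 0.0036 and MMP1 0.014. With density and length trends removed: elongation factors 0.0050, replication-dependent histones 0.074, cytosolic ribosomal proteins 0.056, chaperones 0.00048, G1/S genes 0.0037, G2/M genes 0.054, matrix genes 0.050, the NF-kB list 0.082, glycolysis 0.014, SR proteins and hnRNPs 0.054, small nucleolar RNA hosts 0.044, HEXIM1 0.054, CDK12 -0.033, COL1A1 0.13, GAPDH 0.069, SRSF2 0.019 and MMP1 0.025. With the background subtracted: elongation factors 0.0011, small nuclear RNAs 0.083, G2/M genes 0.020, matrix genes 0.071, the NF-kB list 0.0057, zinc finger genes -0.0020, RNU5B-1 0.083, COL1A1 0.15 and GAPDH 0.0031. Among the denser genes: elongation factors 0.046, 3-prime end factors 0.061, G1/S genes 0.027, G2/M genes 0.050, matrix genes 0.060, the NF-kB list 0.019 and COL1A1 0.066. Without centring: zinc finger genes -0.29, CDK12 -0.25, LUM -0.23, SURF6 -0.21, NBPF1 -0.10 and TMEM167B -0.022. Under quantile normalization: cholesterol synthesis 0.030 and CDK12 -0.031. Leaving out 1 hour turned matrix genes and COL1A1 (without 16 h) and LUM (without 22 h), over ranges of -0.15 to 0.012, -0.18 to 0.066 and -0.094 to 0.30. With each hour scaled: COL1A1 0.0065. The removal of both trends, the scaling of hours and the restriction to denser genes were chosen after seeing the data. With 1 library per group and a median of 303 reads per gene in the shallowest Ser2 library, differences of ratio under the counting SD (median 0.09) were not detectable for single genes.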

Other observations

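Genes that follow closely on another gene lay slightly lower, in classes formed after values were seen. Both classes hold only genes with under 10% of their span in other listed genes. Of 986 genes with a listed gene of the same strand ending within 5 kb upstream, 153 were called lower in limma (15.5%) and 58 higher, with a median ratio of -0.07, against 945 lower (10.6%) and 1358 higher of 8882 genes without one, with a median of 0.02. The first class was also shorter (median 14.5 kb, against 40.4 kb) and denser (0.884 RPM per kb, against 0.628), and with the density trend removed both medians were within 0.01 of 0. Long non-coding RNA genes had 104 of 458 called lower and 55 higher (median -0.08), against 1176 and 1245 of 9844 protein coding genes (median 0.00). They were also shorter (median 10.8 kb, against 35.1 kb) and denser (0.954 RPM per kb, against 0.680), and with the density trend removed 28 were called lower and 12 higher (median -0.01), against 354 and 68 of the protein coding genes (median 0.01).

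On chromosome 6 between 28903002 and 33457541 (hg38), the region of the major histocompatibility complex, which was chosen after values were seen, 56 genes were covered at a median of 0.254 RPM per kb, against 0.695 for all other genes. With the density trend removed, 15 of them were called lower in limma (26.8%, against 3.66% of all genes), out of 439 in all, and their median was -0.42; without this step 13 were called lower and 1 higher, and the median was -0.12. VPS52, CLIC1 and PPP1R10 lie there.

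The 14 mitochondrial genes, which RNAPII does not transcribe, summed to 66.8, 199.9, 71.4 and 152.5 RPM in Ser2 at 14, 16, 19 and 22 h, and to 266.0, 126.3, 116.6 and 208.7 RPM in total RNAPII. Their log2 ratio was -1.99, 0.66, -0.71 and -0.45, so that Ser2 exceeded total at 16 h alone.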
